A study of Mus musculus with 9 samples.

Results

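Transcripts of 6 matrix metalloproteinases (Mmp2, Mmp3, Mmp7, Mmp9, Mmp12 and Mmp14) and 3 of their tissue inhibitors (Timp1, Timp2 and Timp3) were followed in whole mouse kidney. The 9 genes were chosen by name, with earlier results of these data known, out of 22637 gene symbols in the count tables. All 9 were among the 17315 symbols with enough counts to be tested. The 9 RNA-seq libraries came from 129X1/SvJ mice at 9 weeks of age, 3 libraries per group. One group was wild type with no treatment (WT), one was Col4a3-/- given PBS (KO_PBS). The last group, KO_antimiR21, was Col4a3-/- given antimiR-21, which blocks the microRNA miR-21. Col4a3 encodes a chain of the type IV collagen network of the glomerular basement membrane, and its loss is used as a model of Alport syndrome. The sources used here do not give the dose, schedule or chemistry of the inhibitor. The wild-type mice received no injection, so genotype and injection cannot be told apart in comparisons with WT.

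Matrix metalloproteinases are zinc-dependent endopeptidases that cut collagens, laminins, elastin, proteoglycans and many non-matrix proteins. Most are secreted as inactive proenzymes, and they are held in check by the tissue inhibitors, which bind the active site. In the kidney they take part in the turnover of basement membrane and interstitial matrix, and they are produced by resident cells as well as by infiltrating leukocytes. Timp2 has a double role, because together with Mmp14 at the cell surface it helps to activate pro-Mmp2. Timp3 differs from the other inhibitors in that it binds to the matrix, and it also inhibits several ADAM and ADAMTS proteases. Timp3 is a known target of miR-21, as is Reck, a membrane-anchored inhibitor of metalloproteinases that is described here beside the 9 genes.

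Because the treatment was directed at miR-21, its sequence and its matches in the inhibitor genes are shown first. The mature microRNA, from the RefSeq entry at chr11:86584120-86584141 (minus strand, GRCm38.p6), is printed with its seed, bases 2 to 8, in capitals.

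miR-21a-5p: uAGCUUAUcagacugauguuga

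The seed match was searched in the 3′ untranslated region of every gene, taking the longest one annotated (GENCODE vM21, GRCm38). The search found it in 2 of the 9 genes, Timp3 and Timp2, and also in Reck. The stretches around the matches are printed with the paired bases in capitals.

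Timp3: ttgagctttcaATAAGCTAtagctttgttt

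Timp2: cgtcttaaaaaATAAGCTgtcccaaggac

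Reck: tacagtttgaaATAAGCTAttaatgtaata

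Timp3 and Reck held the 8-mer ATAAGCTA, which is the seed complement followed by A, at bases 2325 to 2332 of 3604 and 1042 to 1049 of 1441. Timp2 held the 7-mer ATAAGCT without the final A, at bases 1353 to 1359 of 2630. None of the 6 Mmp genes or Timp1 had such a match in regions of 103 (Timp1) to 2134 bases (Mmp12). Across all 21004 genes with an annotated region, of median length 961 bases, 2.1% held the 8-mer and 7.19% held either form. A match describes the letters of the sequence and does not show that the microRNA binds there.

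Promoter windows, from 250 bases before to 50 bases after the transcription start, were in the RefSeq table (GRCm38.p6) for 7 of the 9 genes, in 9 windows. Mmp2 and Mmp9 had no entry. AP-1 factors (Fos and Jun family) are textbook regulators of metalloproteinase genes, so the AP-1 motif TGAGTCA was searched on both strands. It was present in 3 of the 9 windows, against 5.2% of all 32851 windows. The 120 bases that precede the start are printed for the 3 genes concerned, with the motif in capitals.

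Mmp3: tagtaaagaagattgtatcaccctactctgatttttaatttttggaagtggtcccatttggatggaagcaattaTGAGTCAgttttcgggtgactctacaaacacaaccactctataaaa

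Mmp7: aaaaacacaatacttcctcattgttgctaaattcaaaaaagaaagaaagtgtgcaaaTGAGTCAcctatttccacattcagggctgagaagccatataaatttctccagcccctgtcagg

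Mmp12: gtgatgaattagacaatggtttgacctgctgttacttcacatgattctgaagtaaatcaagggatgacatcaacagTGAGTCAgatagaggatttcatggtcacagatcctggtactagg

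The stretches lie on the plus strand at chr9:7445702-7445821, chr9:7691970-7692089 and chr9:7347254-7347373. The motif began 46, 63 and 44 bases before the start of Mmp3, Mmp7 and this window of Mmp12, which has 2 windows. The same 3 genes held TATAAA, searched likewise on both strands, in 3 of the 9 windows, against 13.6% of all windows. The GC box GGGCGG, on either strand, was in 4 windows, those of Mmp14, Timp1, Timp2 and Timp3, against 35.7%. The ETS core GGAAG, on either strand, was in 9 of 9, against 71.4%. These matches are descriptions of the sequence, and the data held no measurement of factor binding.

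Total expected counts were 26448275 to 31786624 per library. CPM below is the usual count relative to the library total, with that total scaled by the TMM factor of edgeR. Col4a3 itself was at 257 to 371 CPM in WT, 44.3 to 94.3 in KO_PBS and 70.5 to 138 in KO_antimiR21, with every knockout library below every WT library. Summed markers of kidney segments were at 9708 to 15260 CPM in WT, so the labelled tissue was recognisable, and at 3154 to 7187 in KO_PBS and 7504 to 10400 in KO_antimiR21. Summed Y-linked transcripts were at 0.928 and 1.49 CPM in WT 1 and WT 3, which were taken as female, and at 101.7 to 117.7 CPM in the other 7 libraries, taken as male. A code in the deposited library names, of unknown meaning, was L5 for every KO_antimiR21 library and for KO_PBS 3, and L4 for all others. Whether each library was made from its own animal is not said in the labels, and the p-values therefore speak only of the spread among these libraries. In bulk tissue, more cells of a type and more RNA per cell cannot be told apart.

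Of the 9 genes, 8 rose in KO_PBS against WT and none fell, while 14.6% of all tested genes rose and 9.85% fell (edgeR quasi-likelihood test, adjusted p under 0.05). The gene that did not pass was Timp3. The same 8 genes had no overlap between the groups, against 22.6% of all genes that were higher without overlap. In KO_antimiR21 against WT, 5 rose (Mmp2, Mmp9, Mmp12, Mmp14 and Timp1) and none fell, against 6.72% of all genes that rose and 0.427% that fell, and 7 were higher without overlap, against 14.6%. Between KO_antimiR21 and KO_PBS none of the 9 passed, and none of the 17315 genes did (0%). The median log2 fold change of the 9 genes was 2.86, 2.08 and -0.61 in these 3 comparisons, against -0.03, -0.04 and -0.01 over all tested genes. The 3 comparisons share groups and are not independent of one another. Because the 9 genes were chosen with earlier results of these data known, the shares of all genes are given for description only.

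**Figure D1:**
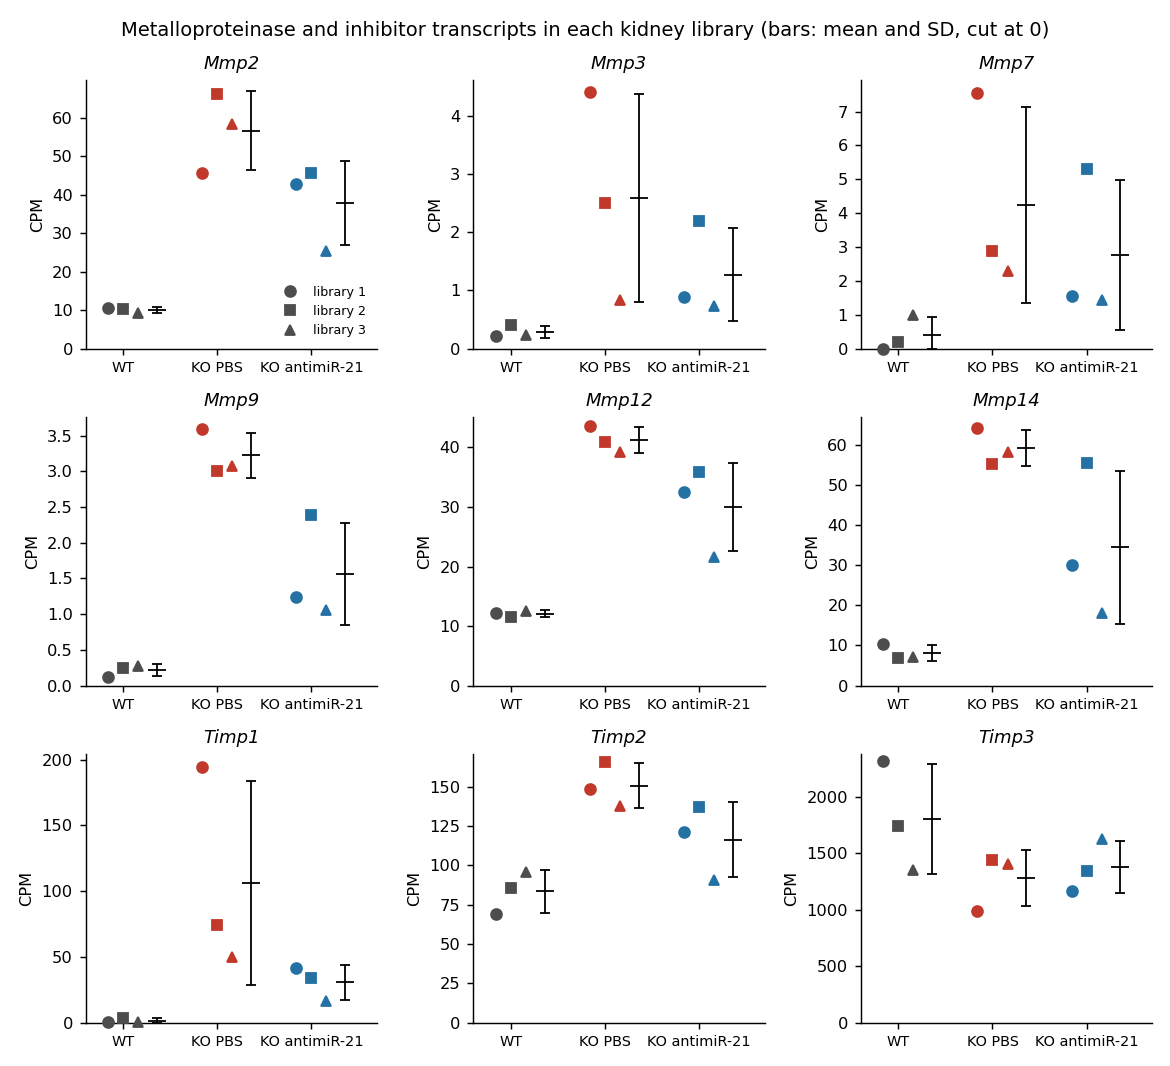
CPM of each of the 9 genes in the 9 libraries (points, 3 per group) with the mean and SD of each group beside them; each panel has its own linear axis from 0, and error bars are cut at 0. In all panels but that of Timp3 the KO_PBS points lie above every WT point, as Timp1 shows with 50.2 to 194.6 CPM against 0.643 to 3.61.

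Mmp14, also called MT1-MMP, is a membrane-anchored collagenase (chr14:54431612-54445364, plus strand, GRCm38). Its level was 10.5, 6.77 and 7.24 CPM in WT 1, 2 and 3. It was 64.0, 55.2 and 58.1 CPM in KO_PBS 1, 2 and 3, and 30.01, 55.4 and 18.0 CPM in KO_antimiR21 1, 2 and 3. Every knockout library was above every WT library, and KO_antimiR21 2 stood within the range of KO_PBS while the other two of its group were lower. Mmp14 rose from 8.16 ± 2.01 to 59.1 ± 4.50 CPM (mean ± SD, n = 3) in KO_PBS, a log2 fold change of 2.86 ± 0.38 (SE, edgeR adjusted p = 0.00184). In KO_antimiR21 it rose to 34.5 ± 19.1 CPM (SD, n = 3), with a log2 fold change of 2.08 ± 0.37 against WT (edgeR adjusted p = 0.0108). That call was lost without WT 3 (edgeR adjusted p = 0.0557). The difference of KO_antimiR21 from KO_PBS was -0.78, with a 95% interval of -1.58 to 0.02 (edgeR adjusted p = 0.707).

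Mmp2, gelatinase A, is the protease that Mmp14 activates (chr8:92827291-92853420, plus strand). It was at 10.5, 10.2 and 9.17 CPM in WT, at 45.6, 66.0 and 58.3 in KO_PBS and at 42.7, 45.5 and 25.4 in KO_antimiR21. The WT libraries lay close together, and in CPM the knockout groups were adjacent without overlapping: the highest KO_antimiR21 library was just below the lowest KO_PBS library. In the log2 matrix deposited by the authors these groups overlapped, with KO_antimiR21 2 at 5.515 and KO_PBS 1 at 5.504. The log2 fold change was 2.51 ± 0.24 for KO_PBS against WT (edgeR adjusted p = 0.00135), and for KO_antimiR21 against WT it was 1.93 ± 0.24 (edgeR adjusted p = 0.00417). Between the knockout groups it was -0.58, with a 95% interval of -1.09 to -0.07 (edgeR adjusted p = 0.707).

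Mmp9, gelatinase B, cuts denatured collagens and type IV collagen and is carried in neutrophil granules (chr2:164940780-164955850, plus strand). Its level was low: it was at 0.127, 0.241 and 0.281 CPM in the WT libraries, at 3.59, 3.003 and 3.07 in those of KO_PBS and at 1.24, 2.38 and 1.07 in those of KO_antimiR21. The 3 groups did not overlap, with KO_PBS on top and WT at the bottom. Mmp9 rose by 3.87 ± 0.43 on the log2 scale in KO_PBS (edgeR adjusted p = 0.00135). The rise in KO_antimiR21 was 2.83 ± 0.43 (edgeR adjusted p = 0.00608). The knockout groups differed by -1.04, with a 95% interval of -1.86 to -0.21 (edgeR adjusted p = 0.707). Summed neutrophil markers were also higher in every knockout library than in WT, at 2.62 to 3.89 CPM in WT, 14.8 to 15.5 in KO_PBS and 7.53 to 15.97 in KO_antimiR21. Unlike Mmp9, they did not separate the knockout groups, since KO_antimiR21 2 exceeded every KO_PBS library. Csf3r formed most of the KO_PBS sum, with a mean of 11.4 CPM. Of 4 tested neutrophil markers 2 rose in KO_PBS (Csf3r and S100a9) and 1 in KO_antimiR21 (Csf3r), against 14.6% and 6.72% of all genes. S100a8 and Ltf passed in neither. Mpo and Ngp were at 0 in every WT library, and no knockout library had more than 1 count of Mpo or 2 counts of Ngp. Their part in the result was not tested.

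Mmp12, macrophage elastase (chr9:7344381-7369499, plus strand), had the smallest rise of the 6 proteases in KO_PBS and the smallest standard error. It was at 12.3, 11.5 and 12.5 CPM in WT and at 43.5, 40.97 and 39.3 CPM in KO_PBS. In KO_antimiR21 it was at 32.5, 35.8 and 21.6 CPM, all between the other groups. The log2 fold changes against WT were 1.77 ± 0.18 for KO_PBS (edgeR adjusted p = 0.00135) and 1.31 ± 0.18 for KO_antimiR21 (edgeR adjusted p = 0.0048). KO_antimiR21 differed from KO_PBS by -0.46, with a 95% interval of -0.86 to -0.06 (edgeR adjusted p = 0.707). The counts of Mmp12 were fractional in all 9 libraries. Macrophage markers also rose, 11 of 12 in either comparison with WT (all genes: 14.6% in KO_PBS and 6.72% in KO_antimiR21). Their summed level was 192.7 to 270.8 CPM in WT and 1262 to 1434 in KO_PBS, and 987, 1477 and 642.5 CPM in KO_antimiR21 1, 2 and 3. No macrophage marker was at 0 in every library of a group, and their part in the level of Mmp12 was not tested.

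Mmp3, stromelysin 1, cuts proteoglycans and can activate other proenzymes (chr9:7445822-7455975, plus strand). Its level was 0.211, 0.401 and 0.241 CPM in the WT libraries, 4.41, 2.50 and 0.838 in those of KO_PBS and 0.892, 2.19 and 0.735 in those of KO_antimiR21. All knockout libraries were above WT, but KO_PBS 3 lay below KO_antimiR21 1 and 2. Mmp3 rose in KO_PBS by 3.16 ± 0.70 on the log2 scale (edgeR adjusted p = 0.0132) and did not pass in KO_antimiR21 (2.15 ± 0.70, 95% interval 0.57 to 3.73, edgeR adjusted p = 0.117). Without KO_PBS 1 the rise in KO_PBS was 2.52 (edgeR adjusted p = 0.0426). Its counts are uncertain, because Mmp3 and the neighbouring stromelysin 2 gene Mmp10 had fractional counts in 5 libraries that summed to whole numbers (within 0.01) in all 9. With both genes summed, the log2 fold change was 3.65 for KO_PBS (edgeR adjusted p = 0.00233) and 3.06 for KO_antimiR21 (edgeR adjusted p = 0.00902), so the second call was gained. Between the knockout groups the value was -1.02 for Mmp3 alone (95% interval -2.41 to 0.38, edgeR adjusted p = 0.746) and -0.59 for the sum (edgeR adjusted p = 0.808).

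Mmp7, matrilysin, is a small secreted protease of epithelia (chr9:7692090-7699585, plus strand). It had 0, 5 and 25 counts in WT 1, 2 and 3, or 0, 0.200 and 1.005 CPM, and a count of 0 in WT 1 allows a level of up to 0.127 CPM (3 counts, counting error only). It was at 7.56, 2.87 and 2.30 CPM in KO_PBS and at 1.55, 5.31 and 1.43 CPM in KO_antimiR21. Every knockout library exceeded WT, the knockout groups overlapped, and 1 library in each stood well above its group. Mmp7 rose in KO_PBS by 3.38 ± 1.05 on the log2 scale (edgeR adjusted p = 0.0457), the call nearest to the threshold. It was lost in 12 of 18 alternatives (edgeR, DESeq2 or limma adjusted p from 0.00309 to 0.197), among them leaving out WT 1, WT 2 or any of the KO_PBS libraries. The value was 2.67 without KO_PBS 1 and 5.29 without WT 3. In KO_antimiR21 it did not pass (2.77, 95% interval 0.41 to 5.12, edgeR adjusted p = 0.176), and the knockout groups differed by -0.61 (95% interval -2.68 to 1.45, edgeR adjusted p = 0.93).

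Timp1, the inducible secreted inhibitor, changed most among the 9 genes (chrX:20870166-20874735, plus strand). Its level was 0.759, 3.61 and 0.643 CPM in WT 1, 2 and 3. It was 194.6, 74.5 and 50.2 CPM in KO_PBS and 41.8, 34.4 and 16.3 CPM in KO_antimiR21. The 3 groups did not overlap, KO_PBS 1 was far above its group, and the single male WT library was the highest of WT. Timp1 rose from 1.67 ± 1.68 to 106.4 ± 77.4 CPM (SD, n = 3) in KO_PBS, a log2 fold change of 5.99 ± 0.84 (edgeR adjusted p = 0.0021), and to 30.9 ± 13.2 CPM (SD, n = 3) in KO_antimiR21, a log2 fold change of 4.20 ± 0.79 (edgeR adjusted p = 0.0133). With single libraries left out the first value ran from 5.20 (without KO_PBS 1) to 7.26 (without WT 2), and the second from 3.81 (without WT 3) to 5.48 (without WT 2). Without WT 1 or WT 3 the second call was lost (edgeR adjusted p = 0.0532 and 0.0565). The log2 difference of KO_antimiR21 from KO_PBS was -1.79, with a 95% interval of -3.32 to -0.25 (edgeR adjusted p = 0.707), and without KO_PBS 1 it was -0.99.

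Timp2 (chr11:118301069-118355740, minus strand) was at 69.0, 85.5 and 96.0 CPM in WT, at 148.7, 166.0 and 137.7 in KO_PBS and at 121.4, 137.4 and 90.6 in KO_antimiR21. KO_PBS was above both other groups without overlap, and KO_antimiR21 3 fell within the range of WT. Timp2 rose in KO_PBS by 0.85 ± 0.19 on the log2 scale (edgeR adjusted p = 0.0123). It did not pass in KO_antimiR21 against WT (0.48, 95% interval 0.06 to 0.90, edgeR adjusted p = 0.186), and passed there without KO_antimiR21 3 (0.65, edgeR adjusted p = 0.0469). Between the knockout groups the value was -0.37 (95% interval -0.79 to 0.05, edgeR adjusted p = 0.712).

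Timp3 (chr10:86300372-86349506, plus strand) was at 2314, 1745 and 1349 CPM in WT, at 993, 1445 and 1410 in KO_PBS and at 1167, 1342 and 1625 in KO_antimiR21. The groups overlapped in every comparison. Its log2 fold change was -0.49 in KO_PBS against WT (95% interval -1.07 to 0.09, edgeR adjusted p = 0.199) and -0.39 in KO_antimiR21 against WT (95% interval -0.96 to 0.19, edgeR adjusted p = 0.458). Between the knockout groups it was 0.10 (95% interval -0.47 to 0.68, edgeR adjusted p = 0.968).

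**Figure D2:**
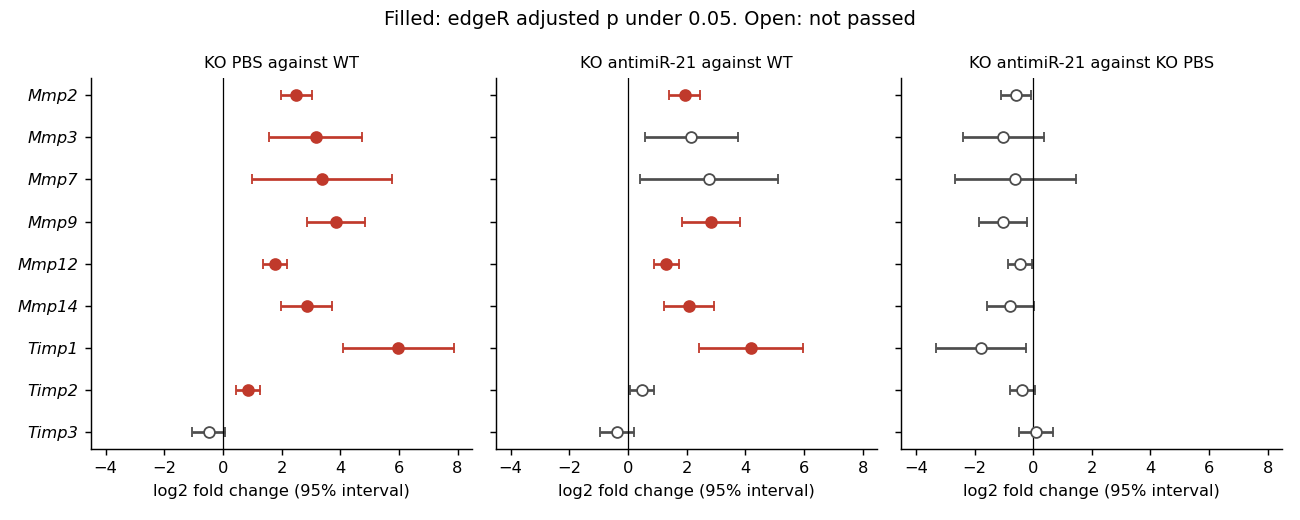
Log2 fold change (points) and 95% interval (bars) of the 9 genes in each comparison, filled and red where the edgeR adjusted p was under 0.05. Timp1 had the largest value in both comparisons with WT (5.99 and 4.20), and in KO_antimiR21 against KO_PBS all points are open and 8 of 9 lie below 0.

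The calls against WT depended on how sex was treated. With sex as a covariate, or with male libraries only, none of the 9 genes passed in either comparison with WT, and no gene of the whole table did, the genes of other lists below included. With sex as a covariate 4389 and 2115 genes had an unadjusted edgeR p under 0.05 for KO_PBS and KO_antimiR21 against WT, and with male libraries only 4396 and 2192. WT then rested on a single male library, WT 2. In male libraries the log2 fold change of KO_PBS was 2.50 for Mmp2, 3.75 for Mmp9, 1.87 for Mmp12, 3.15 for Mmp14 and 4.91 for Timp1. The edgeR adjusted p was 0.0734 for the first 4 of these and 0.0736 for Timp1. With the library code as a covariate 7 of the 9 genes rose in KO_PBS, with 2114 rising in the whole table. None of the 9 passed in KO_antimiR21 against WT, and none of the 17315 genes did, while 2031 had an unadjusted edgeR p under 0.05. The log2 fold changes of the 5 genes called there were 1.86 for Mmp2, 2.93 for Mmp9, 1.41 for Mmp12, 2.12 for Mmp14 and 5.62 for Timp1 under this covariate (edgeR adjusted p from 0.244 to 0.32). L5 held every KO_antimiR21 library and L4 every WT library.

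In KO_antimiR21 against KO_PBS, 8 of the 9 values were below 0 and 1, that of Timp3, was above 0. An unadjusted p under 0.05 was found for 4 genes (Timp1, Mmp12, Mmp9 and Mmp2), against 6.95% of all genes. In CPM, KO_antimiR21 was lower without overlap for 5 genes (Mmp2, Mmp9, Mmp12, Timp1 and Timp2), against 6.85% of all genes. For Mmp2 this did not hold in the log2 matrix deposited by the authors. DESeq2 called 7 genes higher and 12 lower in this comparison, and limma called 0, with none of the 9 among them. Within the L5 libraries, KO_PBS 3 was above all 3 KO_antimiR21 libraries for 6 of the 9 genes and below all 3 for 0, against 24% and 21% of all tested genes, with 1 KO_PBS library and hence no test.

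The same libraries often stood at the ends of the range over the 6 knockout libraries, although the full order differed from gene to gene. KO_antimiR21 3 was the lowest of the 6 for 8 genes and the highest for Timp3. KO_PBS 1 was the highest for 6 genes and the lowest for Timp3, and KO_PBS 2 was the highest for Mmp2 and Timp2. The ratio of the highest to the lowest knockout library was 12.0 for Timp1, 6.002 for Mmp3, 5.28 for Mmp7 and 3.56 for Mmp14. It was 3.37 for Mmp9, 2.60 for Mmp2, 2.01 for Mmp12, 1.83 for Timp2 and 1.64 for Timp3. KO_antimiR21 3 also had the lowest summed macrophage, neutrophil, fibroblast and T cell markers of the 6 and the highest kidney markers. KO_PBS 1 had the lowest kidney markers but was the highest in none of the other sums. Its T cell sum was 23.1 CPM and its neutrophil sum 14.8, against 29.9 and 15.97 in KO_antimiR21 2. Its macrophage sum was 1434 CPM, against 1477 in KO_antimiR21 2, and its fibroblast sum 1558, against 1748 in KO_PBS 2. The part of these cell type markers in the order was not tested.

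Fibroblast markers were at 273.7 to 296.9 CPM in WT, 1373 to 1748 in KO_PBS and 445.5 to 926.3 in KO_antimiR21, and 7 of 9 rose in KO_PBS and 4 in KO_antimiR21. T cell markers summed to 10.4 to 11.9 CPM in WT, 23.1 to 29.6 in KO_PBS and 17.3 to 29.9 in KO_antimiR21, and 7 and 6 of 8 rose. Of the 10 kidney markers 5 fell in KO_PBS and none passed in KO_antimiR21. Among all genes 14.6% rose and 9.85% fell in KO_PBS, and 6.72% rose in KO_antimiR21. Only Kit was testable among 6 mast cell markers and it did not pass. Their sum was 16.3 to 33.1, 16.1 to 22.6 and 17.0 to 25.1 CPM in WT, KO_PBS and KO_antimiR21, with Mcpt4 and Fcer1a at 0 in WT and Mcpt4 at 0 in KO_antimiR21.

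Levels of different genes were compared per kilobase of transcript, using the longest GENCODE vM21 transcript of each. In WT the order of mean level was Timp3 (382 CPM per kb), Timp2 (22.5), Mmp12 (3.36), Mmp2 (3.24), Mmp14 (2.52), Timp1 (1.89), Mmp7 (0.376), Mmp3 (0.158) and Mmp9 (0.0681). The libraries of Mmp12, Mmp2, Mmp14 and Timp1 overlapped one another, as did those of Mmp7 with Timp1, Mmp3 and Mmp9, while Timp3 and Timp2 stood apart from all others. In KO_PBS Timp1 had moved up to second place, with 120.5 CPM per kb, below Timp3 (272) and above Timp2 (40.6), although in KO_PBS 1 it exceeded Timp3. Mmp2 and Mmp14 followed, equal within their spread at 18.4 and 18.2 CPM per kb, and then Mmp12 (11.4), Mmp7 (3.97), Mmp3 (1.44) and Mmp9 (1.01). KO_antimiR21 had the same order at the top, with Timp3 at 292, Timp1 at 34.9 and Timp2 at 31.4 CPM per kb, the last pair within their spread.

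Timp1 formed 0.169%, 1.03% and 0.233% of the summed Timp1, Timp2 and Timp3 level per length in WT. The share was 46.8%, 19.4% and 14.5% in KO_PBS and 14.5%, 10.8% and 4.76% in KO_antimiR21. KO_PBS was above WT throughout, and KO_PBS 3 and KO_antimiR21 1 were nearly equal. The mean share was 0.477% ± 0.480 in WT, 26.9% ± 17.4 in KO_PBS and 10.02% ± 4.91 in KO_antimiR21 (SD, n = 3). The differences were 26.4 percentage points for KO_PBS against WT and 9.54 for KO_antimiR21 against WT (exact permutation test, two-sided p = 0.1 for each, the smallest that 3 against 3 allows). KO_antimiR21 and KO_PBS differed by -16.9 points (exact permutation test, two-sided p = 0.2), and by -6.91 points without KO_PBS 1. Without that library the difference of KO_PBS from WT was 16.4 points.

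The summed Timp level per kilobase in WT spanned that of both knockout groups. It was 509, 397 and 312 CPM per kb in WT, 471, 435 and 392.5 in KO_PBS and 327, 360 and 387 in KO_antimiR21, whose libraries were all below those of KO_PBS by a small margin. The summed level of the 6 proteases separated WT, at 10.2, 9.08 and 9.85 CPM per kb, from KO_PBS at 57.3, 54.9 and 51.4 and KO_antimiR21 at 34.5, 48.8 and 21.9. The ratio of the protease sum to the inhibitor sum was 0.0201 to 0.0316 in WT and 0.122 to 0.131 in KO_PBS. In KO_antimiR21 1, 2 and 3 it was 0.105, 0.135 and 0.0566, so library 2 exceeded KO_PBS and library 3 stood between KO_PBS and WT. These are ratios of transcripts and not of protein or of enzyme activity.

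**Figure D3:**
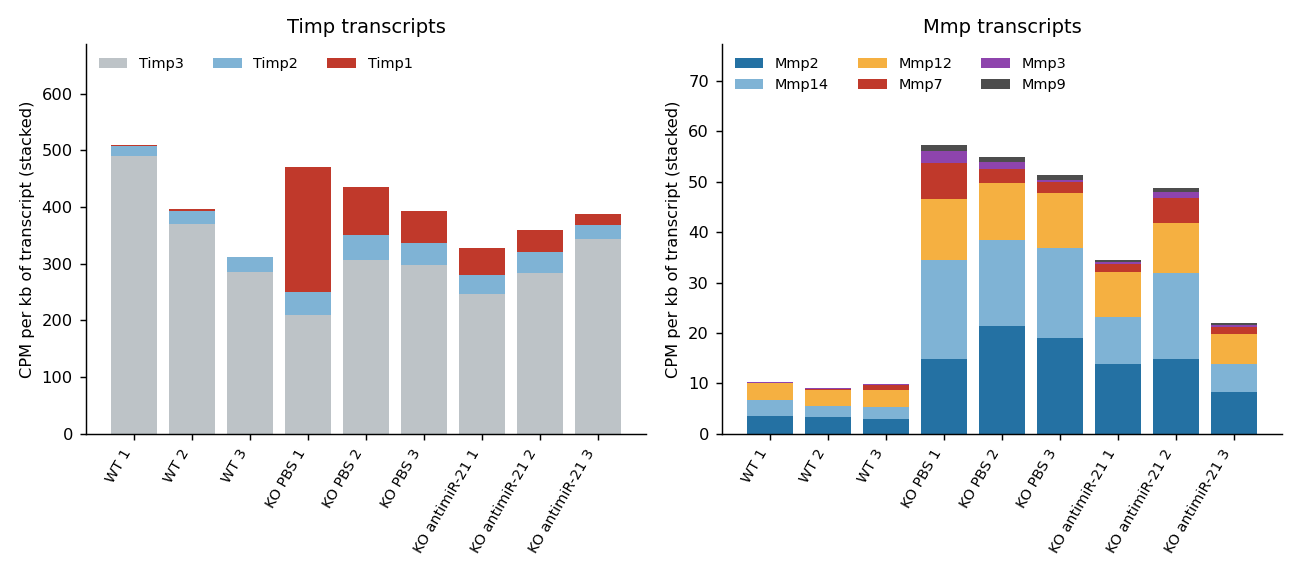
Stacked level per kilobase of transcript (CPM per kb, linear axis from 0) of the 3 Timp genes (left) and the 6 Mmp genes (right) in each of the 9 libraries. The total height on the left stays between 312 and 509 while the red Timp1 part grows in the knockout libraries, and on the right every knockout bar is taller than every WT bar (21.9 or more against at most 10.2).

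None of the 3 inhibitor genes with a match to the miR-21 seed, whose sequences are printed above, passed between KO_antimiR21 and KO_PBS. Reck was at 11.6, 9.26 and 9.65 CPM in WT, at 6.38, 11.4 and 10.6 in KO_PBS and at 6.67, 11.2 and 9.63 in KO_antimiR21. The groups overlapped and the first library of each knockout group was the lowest. In KO_antimiR21 against KO_PBS the log2 fold change was -0.04 for Reck (95% interval -0.66 to 0.57, edgeR adjusted p = 0.989), which also did not pass against WT (-0.11 in KO_PBS and -0.15 in KO_antimiR21, edgeR adjusted p = 0.822 and 0.823). The directions for Reck and for Timp3 between the knockout groups changed under other scalings or with single libraries left out. Reading the 3 genes side by side, the values of KO_antimiR21 against KO_PBS were 0.10 for Timp3, -0.37 for Timp2 and -0.04 for Reck. A log2 rise of more than 0.68 for Timp3, 0.05 for Timp2 or 0.57 for Reck lay outside the 95% intervals.

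**Figure D4:**
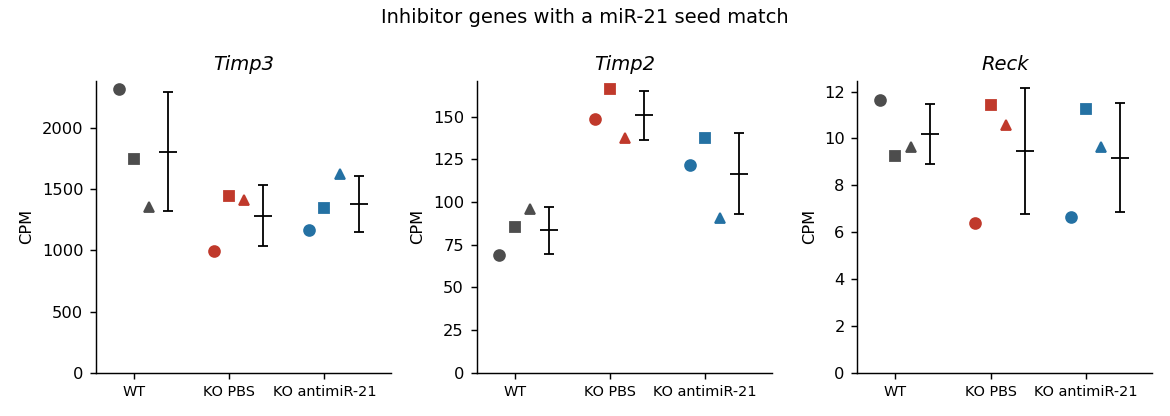
CPM of Timp3, Timp2 and Reck in each library (points; circle, square and triangle for libraries 1, 2 and 3) with the mean and SD of each group, on linear axes from 0. The points of KO_PBS and KO_antimiR21 overlap for Timp3 and Reck, and for Timp2 the 3 KO_antimiR21 points (90.6 to 137.4) lie below those of KO_PBS (137.7 to 166.0).

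Of 17 further Mmp genes listed, 11 were tested, while Mmp8, Mmp16, Mmp20 and Mmp21 had too few counts and Mmp1a and Mmp1b matched no symbol. Of the 11, 8 rose and none fell in KO_PBS against WT, where 14.6% of all genes rose and 9.85% fell. The median log2 fold change of the 11 was 1.50, against -0.03 for all genes. Mmp10, stromelysin 2, rose from 0.0675 ± 0.0831 to 1.89 ± 0.320 CPM (SD, n = 3), a log2 fold change of 4.71 ± 0.73 (edgeR adjusted p = 0.00307), with the count split from Mmp3 described above. Mmp24, a membrane-type protease, rose by 4.35 ± 0.80 on the log2 scale (edgeR adjusted p = 0.00606). Mmp27 had no counts in WT and was at least 20.1-fold higher in KO_PBS and at least 18.4-fold higher in KO_antimiR21, taking 3 counts over the WT group as the limit; with Mmp27 at these bounds the medians of the list are the same. In KO_antimiR21 against WT, 3 of the 11 rose (Mmp10, Mmp24 and Mmp27) and 1 fell, against 6.72% and 0.427% of all genes. The median there was 1.06. The one that fell was Mmp13, an interstitial collagenase, from 1.21 ± 0.606 to 0.338 ± 0.0847 CPM (SD, n = 3), a log2 fold change of -1.83 ± 0.45 (edgeR adjusted p = 0.0441). It was singled out after its value was seen.

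**Figure D5:**
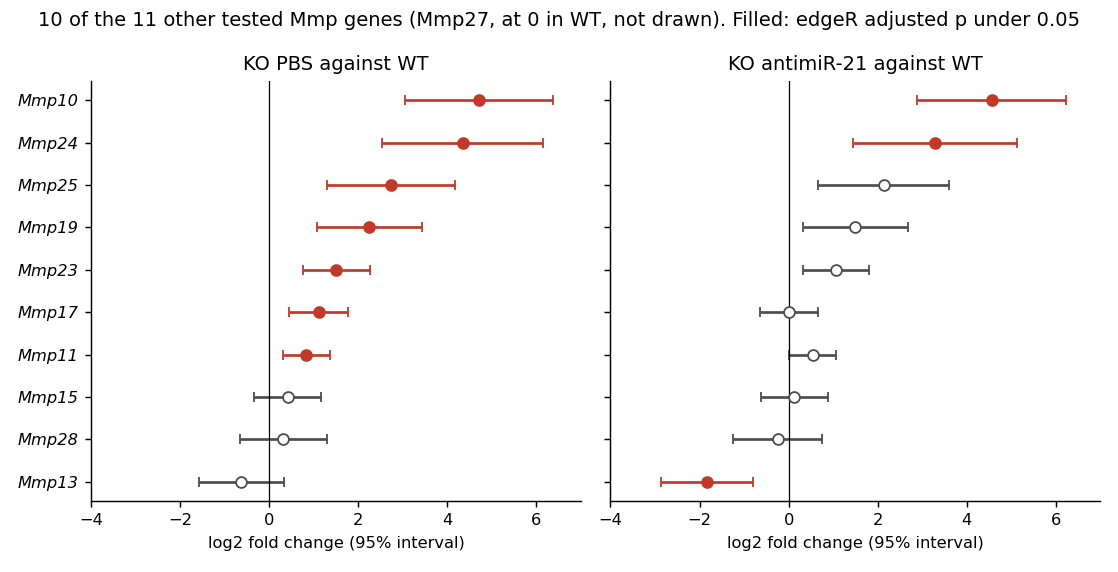
Log2 fold change (points) and 95% interval (bars) against WT for 10 of the 11 other tested Mmp genes, filled and red where the edgeR adjusted p was under 0.05; Mmp27, at 0 in WT, is not drawn. Mmp10 and Mmp24 are filled on the right of 0 in both panels, and Mmp13 is filled on the left of 0 (-1.83) in KO_antimiR21.

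The other inhibitors did not follow Timp1. None of 4 tested genes (Timp4, Reck, A2m and Tfpi2) passed in any comparison, with a median of 0.04 in KO_PBS and 0.00 in KO_antimiR21 against WT. A2m, the broad plasma protease inhibitor alpha-2-macroglobulin, was at 0.536 ± 0.471 CPM in WT and 1.81 ± 2.37 in KO_PBS (SD, n = 3). Timp4 was at 0.739 ± 0.693 CPM in WT, 0.224 ± 0.0405 in KO_PBS and 1.095 ± 1.45 in KO_antimiR21 (SD, n = 3).

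Among 8 tested activators of proenzymes and members of the plasmin system, 3 rose and 1 fell in KO_PBS, against 14.6% and 9.85% of all genes. In KO_antimiR21 2 rose, against 6.72%, and the medians were 0.49 and 0.12. Serpine2, a serine protease inhibitor and so not an activator, rose by 1.81 ± 0.25 in KO_PBS (edgeR adjusted p = 0.002). Pcsk6, a proprotein convertase, fell from 47.1 ± 12.9 to 8.72 ± 4.87 CPM (SD, n = 3) in KO_PBS, a log2 fold change of -2.44 ± 0.55 (edgeR adjusted p = 0.014).

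Of 8 docking and clearance partners 4 rose and 1 fell in KO_PBS, against 14.6% and 9.85% of all genes. In KO_antimiR21 3 rose, against 6.72%, and the medians were 1.18 and 0.76. Lrp1, an endocytic receptor that clears metalloproteinase and inhibitor complexes, rose by 1.56 ± 0.16 on the log2 scale in KO_PBS (edgeR adjusted p = 0.00135). Cd44, the hyaluronan receptor that can hold Mmp9 at the cell surface, rose from 3.50 ± 2.97 to 69.5 ± 9.99 CPM (SD, n = 3), by 4.30 ± 0.60 (edgeR adjusted p = 0.00204). Lcn2, the lipocalin that binds Mmp9 and is a marker of tubular injury, rose by 4.36 ± 0.95 (edgeR adjusted p = 0.0122).

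Of 9 genes for cytokines and receptors known to induce metalloproteinases or Timp1, 8 rose in KO_PBS and 5 in KO_antimiR21. These counts stand beside 14.6% and 6.72% of all genes, and the medians were 3.18 and 1.96. Osmr, the oncostatin M receptor subunit, rose by 2.60 ± 0.29 in KO_PBS (edgeR adjusted p = 0.00135) and Tgfb1 by 1.56 ± 0.23 (edgeR adjusted p = 0.00238). Lif, a cytokine of the interleukin 6 family, rose from 1.37 ± 1.07 to 28.2 ± 6.58 CPM (SD, n = 3), by 4.35 ± 0.57 (edgeR adjusted p = 0.00172).

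Of 10 AP-1 and ETS factors 5 rose in KO_PBS and 1 in KO_antimiR21, against 14.6% and 6.72% of all genes. The medians of the list were 1.25 and 0.23. Fosl1, which encodes the AP-1 subunit Fra-1, rose by 4.14 ± 0.71 in KO_PBS (edgeR adjusted p = 0.00449), and the rise in KO_antimiR21 was 3.17 ± 0.71 (edgeR adjusted p = 0.0296). Junb rose by 2.02 ± 0.39 (edgeR adjusted p = 0.00749) and Jun by 1.38 ± 0.30 in KO_PBS (edgeR adjusted p = 0.0119). In KO_antimiR21 against WT they were 1.01 and 0.52 and did not pass (edgeR adjusted p = 0.177 and 0.377).

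Of 19 matrix substrates 15 rose and none fell in KO_PBS, against 14.6% and 9.85% of all genes. In KO_antimiR21 9 rose, against 6.72%, and the medians were 1.96 and 0.97. The fibrillar collagen genes Col5a2, Col3a1 and Col1a1 had the lowest p, and Col1a1 rose from 23.5 ± 7.44 to 405 ± 28.8 CPM (SD, n = 3), by 4.11 ± 0.42 (edgeR adjusted p = 0.00135). Timp3 inhibits some ADAM and ADAMTS proteases. Of 25 tested, 7 rose in KO_PBS and 3 in KO_antimiR21, against 14.6% and 6.72% of all genes, with medians of 0.68 and 0.24. Adamts1 rose by 2.29 ± 0.28 in KO_PBS (edgeR adjusted p = 0.00149), Adamts2, which trims procollagen, by 2.46 ± 0.32 (edgeR adjusted p = 0.00177) and Adam8, a leukocyte protease, by 3.97 ± 0.57 (edgeR adjusted p = 0.00226). In each of these lists none passed between KO_antimiR21 and KO_PBS.

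Likeness to each of the 9 genes was measured as the root mean square difference of log2 CPM, centred per gene, over the 9 libraries, among 14956 genes whose mean log2 CPM was 0 or more. Small values mean a like pattern, and no test was made. Timp1 was nearest to Ltbp2, a matrix protein that binds fibrillin (0.40), then Sult4a1 (0.53) and BC024561 (0.67). Mmp14 was nearest to Gpr35 (0.15), Slc7a2 (0.20) and Fn1, fibronectin (0.22). Mmp2 was nearest to Brca1 (0.17), Slc15a3 (0.17) and Nfkbie (0.18).

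Mmp12 had Sbno2 (0.10), Slc7a5 (0.11) and the NF-kappaB subunit Nfkb2 (0.11) as nearest genes, and Mmp9 had Sla (0.30), the Fc receptor Fcgr3 (0.31) and Islr2 (0.31). For Mmp3 they were Edn1, endothelin 1 (0.28), Glipr2 (0.41) and Steap1 (0.44), and for Mmp7 the neutrophil chemokine Cxcl1 (0.82), Egr2 (0.90) and Cd84 (1.03). Timp2 was nearest to Phgdh (0.09), Myd88 (0.10) and Slc12a4 (0.10), and Timp3 to 2810407C02Rik (0.08), Ngly1 (0.08) and Cox15 (0.09). Among the 9 genes themselves the closest pairs were Mmp14 with Mmp2 (0.35), Mmp12 with Mmp2 (0.36) and Mmp12 with Timp2 (0.43). Genes that vary little, such as Timp2 and Timp3, reach small values more easily.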

How the data were processed

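Libraries of whole-kidney RNA were prepared by a TruSeq RNA v2 protocol, per the labels. The deposited tables gave expected counts per gene symbol, made with Bowtie and RSEM on mm9, per the submitters' processing notes; for versions, annotation and strand, nothing is given in the sources used here. The authors also deposited a log2 matrix, which equalled log2 CPM plus 1 constant per library. RSEM shares reads among similar genes, so counts of such genes are uncertain. Besides Mmp3, counts were fractional in 9 libraries for Mmp12 and Timp3, in 5 for Timp2 and in 3 for Mmp2 and Timp1. They were fractional in 1 library for Mmp14 and in 0 for Mmp7 and Mmp9. The genes that shared these reads were not sought.

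Expected counts were rounded. Genes passing filterByExpr of edgeR 4.0.16 entered 1 quasi-likelihood fit of all 9 libraries with 3 group means and TMM scaling (R 4.3.3). Tests were two-sided, with p-values adjusted by Benjamini-Hochberg over 17315 genes per comparison, and passed under 0.05. SE was the log2 fold change divided by the square root of F. Log2 CPM used a prior count of 0.5. The script was tested on simulated data. Alternatives were DESeq2 1.42.0, limma 3.58.1 on the deposited log2 matrix, library size scaling, no filter, 2 groups only, a replicate block, sex or library code as covariate, male libraries only and leaving out each library. Summing Mmp3 and Mmp10 was added after seeing the data.

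Members and lists were chosen with earlier results of these data known. All 9 members, Reck and the 3 genes of each other list with the lowest p in KO_PBS against WT were named. A gene that this rule takes is not reported here. Older symbols (Jund1, Lamb1-1, Emr1 and Lyzs) were matched by hand. Coordinates and sequences are of GRCm38 and were not joined to the mm9 counts.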

Additional observations from a re-analysis of the deposited data

How the results depend on the processing

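In KO_PBS against WT the count of the 9 genes that rose was 8 and became 0 with sex as a covariate and 0 with male libraries only; it was 7 to 8 when a library was left out. In KO_antimiR21 against WT the count was 5 and became 0 with sex as a covariate, 0 with male libraries only and 0 with the library code as a covariate, where 0 of all genes passed in each of these fits and the log2 fold changes of the 5 genes were 1.41 (Mmp12) to 5.62 (Timp1) with the library code; it was 3 to 6 when a library was left out, with 3 without WT 3. In KO_antimiR21 against KO_PBS it was 0 in every alternative run. WT has a single male library, which limits these fits. DESeq2 added Mmp3 and Mmp7 in KO_antimiR21 against WT (DESeq2 adjusted p = 0.0333 and 0.0414).

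Signs changed for values that did not pass. Reck against WT was 0.16 with library size scaling, 0.0304 with sex as a covariate and 0.0534 in male libraries for KO_PBS (-0.26 to 0.10 with a library left out), and 0.0131 with library size scaling and 0.0183 in male libraries for KO_antimiR21 (-0.31 to 0.0355). In KO_antimiR21 against KO_PBS, Reck ran from -0.24 to 0.14 and Mmp7 from -1.48 to 0.12 with a library left out. With the library code as a covariate Mmp3 was 0.61, Mmp7 0.27 and Timp3 -0.033 there, and Timp3 was -0.0246 with library size scaling and -0.0288 to 0.21 with a library left out. The cause was not tested. Library size scaling moved the median of all genes from -0.03 to 0.25 in KO_PBS against WT (3753 higher and 904 lower, against 2522 and 1705 with TMM) and from -0.01 to -0.14 in KO_antimiR21 against KO_PBS.

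With the replicate number as a block, 7 genes rose in KO_PBS (all but Mmp7, 3.49, edgeR adjusted p = 0.106) and 5 in KO_antimiR21, and over all genes 2076 rose and 1129 fell in KO_PBS against WT. Correlations of same-numbered deviations were -0.30, 0.16 and -0.31 for KO_PBS against WT and -0.22, 0.04 and -0.19 for KO_antimiR21 against WT. For the knockout groups they were 0.40, -0.07 and 0.11. With deviations taken from means of 3 libraries, such correlations cannot decide whether the numbers paired the samples. The Timp1 share difference ran from 16.4 to 32.6, 7.32 to 12.2 and -23.1 to -6.91 points with a library left out, and was 7.29, 2.03 and -5.26 points by CPM without length. Depth limits Mmp3, Mmp7 and Mmp9, whose WT levels rest on few counts.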
